A study of Papio anubis with 12 samples.

Results

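The L/C comparison set 4 baboon neonates fed formula L against 4 fed formula C, out of 12 animals and 12 arrays in the series. Formula L held 0.33% docosahexaenoic acid (DHA) and 0.67% arachidonic acid (ARA), and formula C, the control, held neither. The members were chosen by the formula in the sample labels and by no measured value. Total RNA from the precentral gyrus, the strip of cerebral cortex that holds the primary motor area, was labelled from an oligo-dT primer, and each animal was measured on 1 Affymetrix HG-U133 Plus 2.0 array. These arrays carry probes for human transcripts, while the animals were olive baboons (Papio anubis). The L animals were 3 females aged 84, 87 and 85 days at necropsy (replicates 1, 3 and 4) and 1 male aged 85 days (replicate 2). The C animals were 2 males aged 83 and 85 days (replicates 1 and 4) and 2 females aged 85 and 84 days (replicates 2 and 3). All 8 animals were formula fed, so that no breastfed animal stands in the comparison. The remaining 4 arrays, all of females, came from formula L3, which had the ARA of L and 1.00% DHA. L and C differ in both fatty acids at once, and the effects of DHA and ARA cannot be told apart in L/C.

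DHA and ARA are the main long chain polyunsaturated fatty acids (LCPUFA) of brain membrane phospholipids, and the cortex takes up both while neurons grow processes and form synapses. Inside cells they are carried by binding proteins, activated to acyl-CoA, stored in phospholipids and released by phospholipases A2. ARA is the substrate of cyclooxygenases and lipoxygenases, which make prostaglandins, leukotrienes and other eicosanoids. Polyunsaturated fatty acids also act on transcription, through nuclear receptors such as the PPARs and RXRs and through the sterol-regulated factors that drive lipid synthesis genes.

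Values are the deposited MAS5 signals, a linear intensity summarized over the probes of 1 probe set. Tests used log2(signal + 16), quantile normalized over 12 arrays, which makes the differences of low signals smaller. A log2 difference is L minus C, so a positive one means a higher value in L. Its standard error (SE) and limma p come from a fit to all 12 arrays, so the spread of the L3 group enters both. Signals of single arrays are listed for replicates 1 to 4 in that order, and other values are means ± SD of the 4 arrays of a group. An exact permutation test of 4 against 4 arrays, two-sided, cannot give a p below 0.0286, the value that every probe set without overlap between the groups receives. The signal of a probe set depends on how well its probes match the baboon transcript, so levels were compared between groups and not between genes. A lower signal in tissue RNA cannot tell fewer cells of a type from less RNA per cell.

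The labelled sex and tissue were checked first. The Y-linked ribosomal protein gene RPS4Y1 had 3132 to 4667 in the 3 male arrays of L and C and 65.8 to 248 in the 5 female ones, and the X-inactivation RNA XIST (_s_at) had 20.7 to 110.4 in males and 587 to 992 in females, so each of the 8 arrays matched its labelled sex. Markers of excitatory neurons (SLC17A7, CAMK2A), inhibitory neurons (GAD1), astrocytes (SLC1A2) and myelin (MBP) were all bright, with mean signals of 4038 for SLC17A7, 4617 for CAMK2A, 4977 for GAD1, 19261 for SLC1A2 and 5264 for MBP in the brightest probe set.

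The arrays were not equally alike. L replicates 2, 3 and 4, C replicates 3 and 4 and L3 replicate 4 correlated with each other at 0.864 to 0.906 over all probe sets. All other pairs of arrays had correlations of 0.684 to 0.821. L replicate 1 had the lowest median correlation with the other 11 arrays of the series, 0.703, against 0.807 to 0.817 for the other L arrays. The ratio of the 3' to the 5' control probe set of ACTB, which is high where labelled RNA is short, was 11 in L replicate 1 and 0.904 to 2.51 in the other L arrays. In C it was 12.1, 5.15, 3.64 and 0.982 in replicates 1 to 4. Both groups therefore held arrays with a high and with a low ratio, and the ratio did not separate L from C (exact permutation p = 0.46). The part of array quality in single results was not tested. Many differences lost their sign or most of their size without a single array or in the 6 arrays that correlate best. For many of these, though not for all, such a value stands beside the difference. A difference printed without one may not be stable.

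**Figure D1:**
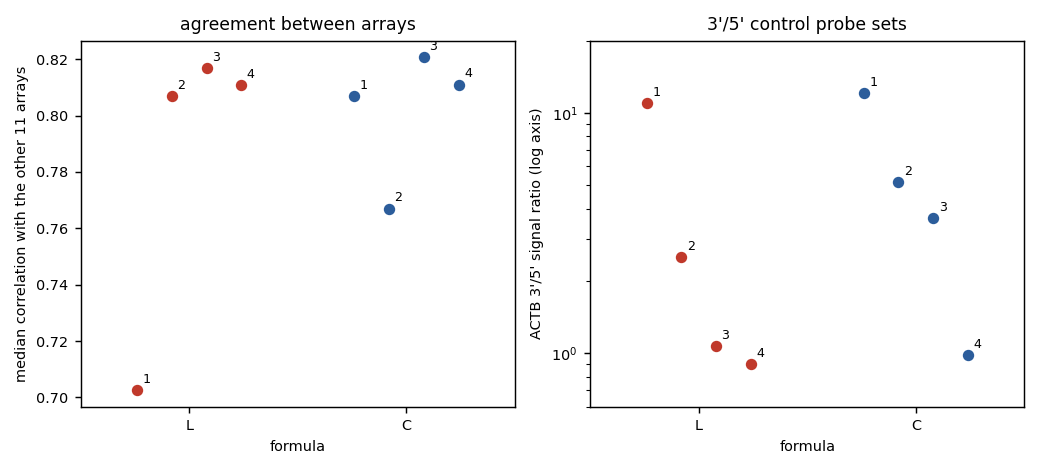
Median correlation of each array with the other 11 arrays (left) and ratio of the 3' to the 5' probe set of ACTB on a log axis (right), for the 4 L and 4 C arrays, labelled by replicate number. L replicate 1 lies lowest at a median correlation of 0.703, and the ratios run from 0.904 to 11 in L and from 0.982 to 12.1 in C.

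None of the 54613 probe sets passed correction for multiple tests between L and C. Limma gave an adjusted p under 0.05 to 0 probe sets (0%), and the smallest adjusted p was 1.00. At an unadjusted p under 0.05 there were 1324 probe sets (2.42%), of which 629 were higher (1.15%) and 695 lower (1.27%) in L. An even spread of p values would put 2731 probe sets there. After normalization, the 4 L arrays lay above the 4 C arrays for 508 probe sets (0.93%) and below them for 637 (1.17%). The median log2 difference over all probe sets was -0.0089, 49.1% of them were higher in L, and the median size without regard to sign was 0.28 with a median SE of 0.51. With 4 against 4 arrays, the SE was larger than the difference itself in 73.5% of probe sets.

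Low unadjusted p values were more frequent among dim than among bright probe sets. Probe sets were split by mean signal into 4 groups of equal size. In the dimmest group, with a median signal of 42.2, 450 had an unadjusted p under 0.05 (3.3%). In the brightest group, with a median signal of 537, there were 164 (1.2%). In the dimmest group 226 of the 450 were higher and 224 lower in L, whereas in the brightest 61 were higher and 103 lower in L. The median SE was 0.47 in the dimmest group, 0.62 and 0.53 in the middle ones and 0.35 in the brightest, and the median size of the difference was 0.28, 0.39, 0.32 and 0.19 in the same order. Error and size were therefore lowest in the brightest group and highest in the second, not in the dimmest.

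**Figure D2:**
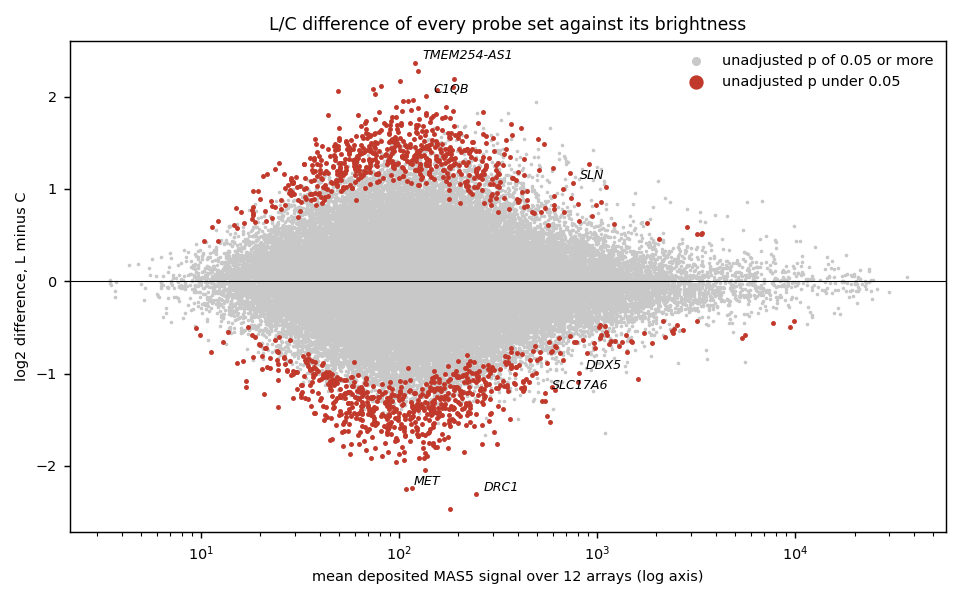
Log2 difference of L minus C for each of 54613 probe sets against its mean deposited signal on a log axis, with probe sets at an unadjusted p under 0.05 in red and 7 of the named genes labelled. The differences are narrowest among the brightest probe sets, where 1.2% of the brightest group reached that p, against 3.3% of the dimmest.

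Genes were named from the probe sets with a mean signal of at least 100, 1 gene symbol and no overlap between the 4 L and 4 C arrays after normalization. Of these, 220 were higher and 294 lower in L, and the 12 genes with the smallest limma p in each direction are described here. Since the absence of overlap chose them, it is a description and not a test of them. Adjusted p values from limma were 1.00 for all 24. Their unadjusted p values ran from 5.02e-04 to 0.00575 for the 12 higher genes and from 5.54e-04 to 0.00527 for the 12 lower ones. The log2 difference of L3 from C is set beside each where it is given, and it rests on the same 4 C arrays.

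The 12 genes higher in L included membrane, receptor and secreted proteins. SLN encodes sarcolipin, a small membrane protein that binds the calcium pump of the sarcoplasmic reticulum. Its signal was 781, 1165, 1141 and 1426 in L, against 530.1, 367, 559 and 600.4 in C. The lowest L array, replicate 1, was above the highest C array, and the log2 difference was 1.07 (SE 0.25), with 0.37 in L3/C. SLN was the brightest of the 12, and its only probe set was the one named.

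SMOC2, a secreted calcium-binding protein of the extracellular matrix, had 383, 177, 427 and 325 in L, against 94.0, 63.7, 59.3 and 94.9 in C. L replicate 2, the lowest L array, was above C replicate 4, the highest C array. On the log2 scale it was higher by 1.84 (SE 0.45), with 0.66 in L3/C. PTH2R, the receptor of the neuropeptide TIP39, had 336, 178, 172 and 149.5 in L, against 14.3, 35.7, 101 and 16.7 in C. C replicate 3 was well above the other C arrays and still below all L arrays. Its log2 difference was 2.17 (SE 0.58), with 0.28 in L3/C. HTR4, a serotonin receptor that raises cyclic AMP, had 333, 467, 356 and 331 in L, against 149.5, 127, 61.9 and 180 in C. The L arrays lay close together, with a log2 difference of 1.43 (SE 0.44) from C and of 0.43 in L3/C.

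Signalling and transcription genes of the same group included PTPN11, which encodes the tyrosine phosphatase SHP2 of growth factor signalling. Its named probe set had 345, 304, 317 and 407 in L, against 50.4, 142, 25.3 and 72.4 in C. The L arrays lay close together, and the C arrays were lower and more spread. The log2 difference was 2.19 (SE 0.60), with 0.59 in L3/C. ID3, an inhibitor of basic helix-loop-helix factors that rises in response to BMP signals, had 290.2, 248, 499.6 and 246 in L, against 77.1, 93.3, 131 and 117 in C. The L arrays were all higher, by 1.43 (SE 0.43) on the log2 scale, whereas L3/C was at -0.31. MSX1, a homeobox gene of craniofacial and limb development, had 368, 177, 104 and 148 in L, against 57.9, 55.2, 28.5 and 30.8 in C. L replicate 1 was the highest, and the log2 difference was 1.85 (SE 0.48), with 0.39 in L3/C.

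C1QB, a chain of complement C1q that microglia make in brain, had 254, 270.3, 153 and 239.6 in L, against 20.6, 37.5, 41.8 and 104 in C. The highest C array, replicate 4, was below the lowest L array, replicate 3. The groups differed by 2.00 (SE 0.60) on the log2 scale, with 0.89 in L3/C. The other C1q chains in the brightest probe set had log2 differences of 0.64 (SE 0.70) for C1QA and 0.015 (SE 0.48) for C1QC.

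ANXA11, a calcium-dependent phospholipid-binding annexin, had 548, 240, 229.8 and 178 in L, against 212, 69.6, 63.6 and 68.1 in C. The deposited signals overlapped, since C replicate 1 was above L replicate 4, and the groups separated only after quantile normalization (log2 difference 1.51 (SE 0.44), with 1.47 in L3/C). TRAM2, a protein of the translocon in the endoplasmic reticulum, had 183, 176, 136 and 166 in L, against 43.5, 77.8, 22.5 and 88.1 in C. Its log2 difference was 1.44 (SE 0.45), with 1.40 in L3/C. The non-coding RNA TMEM254-AS1 had the largest difference of the 12, with 431, 207, 152 and 179.9 in L, against 27.5, 60.5, 26.4 and 25.2 in C. L replicate 1 stood highest there, and the log2 difference was 2.36 (SE 0.57), with 0.56 in L3/C. LCDR, which is listed under that symbol in the platform annotation, had 354, 192, 201 and 59.9 in L, against 30.9, 49.0, 41.2 and 21.5 in C and a log2 difference of 1.97 (SE 0.59).

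The 12 genes lower in L included a transporter of excitatory neurons. SLC17A6 encodes VGLUT2, which loads glutamate into synaptic vesicles. Its only probe set had 268, 297, 299 and 298 in L, against 818, 509, 975 and 691 in C. The 4 L arrays were nearly equal, and the lowest C array, replicate 2, was well above them. The log2 difference was -1.21 (SE 0.30), with -0.29 in L3/C, and L replicate 1 did not stand apart from the other L arrays. SLC17A7, which encodes the related VGLUT1, had a log2 difference of 0.20 (SE 0.63) in its brightest probe set and of -0.57 (SE 0.24) in its other one.

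DDX5, an RNA helicase of splicing and transcription, was the brightest of the 12. It had 596, 411, 625 and 498 in L, against 1365, 1247, 993 and 758 in C, so that no C array fell below an L array. The log2 difference was -0.99 (SE 0.30), with -0.32 in L3/C. DRC1, a subunit of the dynein regulatory complex of motile cilia, had 116, 44.2, 42.6 and 51.9 in L, against 364, 211, 1013 and 306 in C. L replicate 1 was the highest of the L arrays, and C replicate 3 was far above the other C arrays. The log2 difference was -2.31 (SE 0.57), with -1.20 in L3/C.

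MET, the receptor of hepatocyte growth factor, which takes part in the growth of cortical neurons, had 18.3, 18.8, 13.8 and 24.7 in L, against 99.1, 194, 215 and 124 in C in its named probe set. The L arrays were all low, with a log2 difference of -2.25 (SE 0.61) and of -0.52 in L3/C. XPNPEP2, a membrane-bound aminopeptidase, had 54.4, 28.1, 25.0 and 14.9 in L, against 167, 289, 144 and 209.5 in C and differed by -2.24 (SE 0.52) on the log2 scale, with -1.03 in L3/C. MICAL3, a monooxygenase that acts on the actin cytoskeleton and vesicle traffic, had 48.6, 34.6, 20.3 and 73.0 in L, against 326, 122, 259 and 248 in C, and was at -2.04 (SE 0.58) in L/C and -1.13 in L3/C.

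Of the protein turnover genes, CAND1, which exchanges the substrate receptors of cullin ubiquitin ligases, had 42.8, 10.0, 16.1 and 61.7 in L, against 151, 272, 66.2 and 83.9 in C in its named probe set, and USP31, a deubiquitinating enzyme, had 20.7, 22.8, 97.5 and 61.4 in L, against 172, 200.4, 147 and 183 in C. The log2 differences were -1.68 (SE 0.50) for CAND1 and -1.68 (SE 0.51) for USP31, with 0.02 and -0.44 in L3/C in the same order. TSPAN16, a tetraspanin, had 68.7, 55.4, 40.9 and 33.3 in L, against 153, 329, 147 and 219 in C and a log2 difference of -1.75 (SE 0.48). The remaining 3 were non-coding transcripts. BIN3-IT1 had a log2 difference of -1.80 (SE 0.43), PCA3 of -1.81 (SE 0.51) and MIR3667HG, the host transcript of a microRNA, of -1.81 (SE 0.56). Their signals were 38.7, 42.2, 77.3 and 50.6 in L, against 304, 309.7, 144 and 146 in C for BIN3-IT1, 26.2, 54.1, 31.1 and 36.7 in L, against 276, 332, 60.3 and 124 in C for PCA3 and 76.1, 51.2, 52.0 and 35.8 in L, against 201, 496, 89.7 and 235 in C for MIR3667HG. In L3/C the log2 differences were -0.34 for BIN3-IT1, 0.58 for PCA3 and -1.50 for MIR3667HG.

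**Figure D3:**
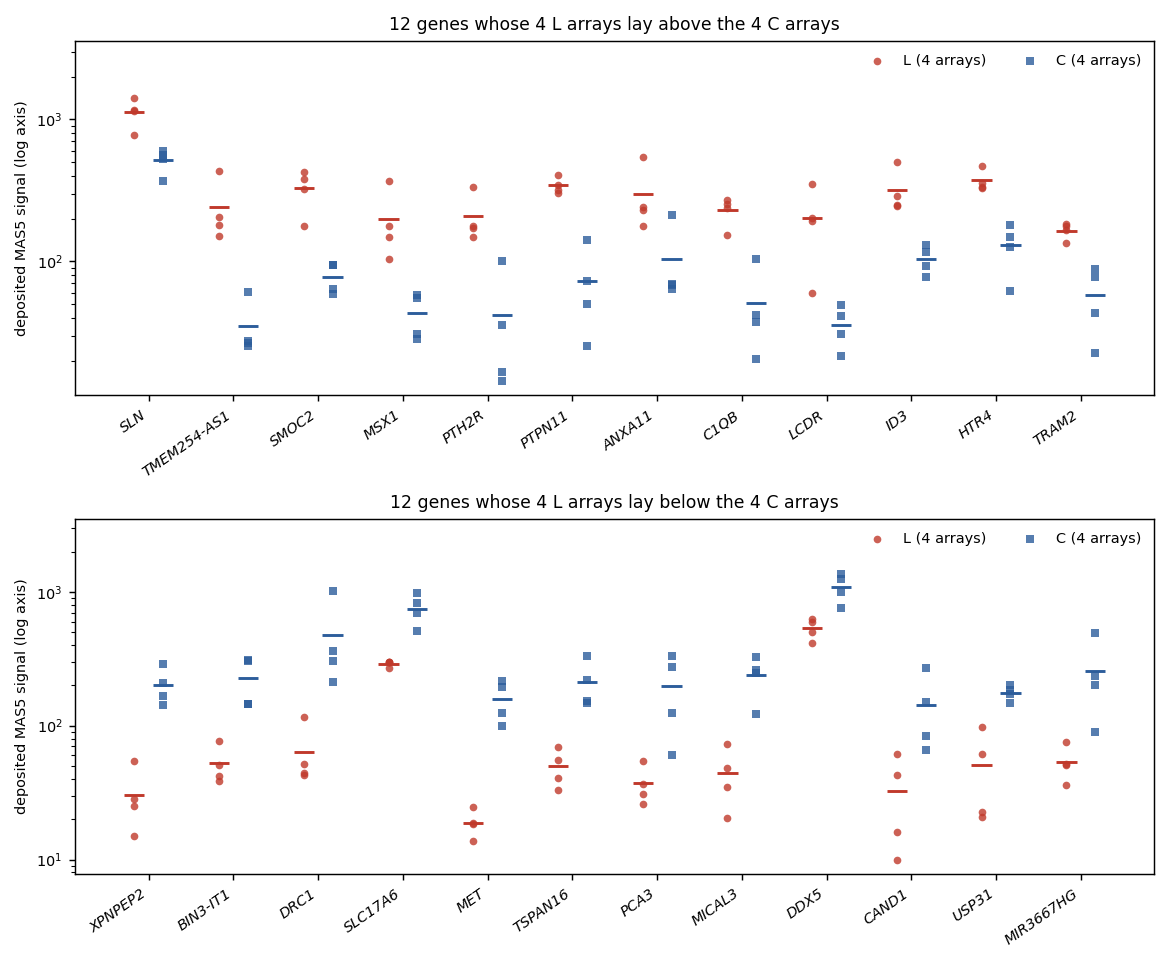
Deposited signal of each L array (circles) and C array (squares) on a log axis for the 12 genes higher and the 12 lower in L, with the group mean as a bar. SLC17A6 had 268 to 299 in L and 509 to 975 in C, and the deposited signals of ANXA11 overlap between the groups.

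The array holds several probe sets for many genes, and these were set side by side. Other probe sets existed for 14 of the 24 genes, 34 in all. Of these 34, 11 differed in the same direction as the named one and 0 did so at an unadjusted p under 0.05 by limma. Only 4 of the 14 had been named by their brightest probe set. PTPN11 had 6 probe sets, of which the brightest, at a mean signal of 3399, had a log2 difference of 0.22 (SE 0.23), while the named one, at 189, was the fourth in brightness. MSX1 was at -0.04 (SE 0.41) in its brighter probe set and ANXA11 at -0.36 (SE 0.30) in its brightest. TRAM2 was at -0.79 (SE 0.68) in its brightest probe set, opposite to the named one. HTR4 and SMOC2 had been named by their brightest probe set. The dimmer ones were at -0.41 (SE 0.53) and -0.16 (SE 0.36) for HTR4 and at -0.02 (SE 0.30) for SMOC2.

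Among the lower genes, MET was at 0.05 (SE 0.31) in the brightest of 4 probe sets and CAND1 at 0.01 (SE 0.34) in the brightest of 7. MICAL3 was at -0.21 (SE 0.34), USP31 at 0.12 (SE 0.30) and PCA3 at 0.16 (SE 0.40) in theirs. MIR3667HG was at 0.04 (SE 0.58) in its brighter probe set. TSPAN16 and XPNPEP2 were the 2 genes whose other probe sets all had the named direction. TSPAN16 was at -1.75, -1.12 and -0.74 from its brightest to its dimmest probe set. XPNPEP2 was at -2.24 and -0.72. The other 10 genes, among them SLN, SLC17A6, C1QB, ID3 and DDX5, had no second probe set named for that gene alone.

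The same comparison was made for all 10523 genes with 2 or more probe sets. The 2 brightest had the same sign of the L/C difference in 51.7% of genes, with a Pearson r of 0.030 and a Spearman rho of 0.029 across genes, which are not independent replicates. Agreement was closer where both were bright. With both at a mean signal of at least 100, 52.6% of 7002 genes had the same sign (r = 0.043), and with both at 500 or more 59.1% of 1180 did (r = 0.15). Of the 207 genes whose brightest probe set had an unadjusted p under 0.05 by limma, 116 had the same sign in the second. In 22 such genes with both probe sets at 500 or more, 17 did.

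**Figure D4:**
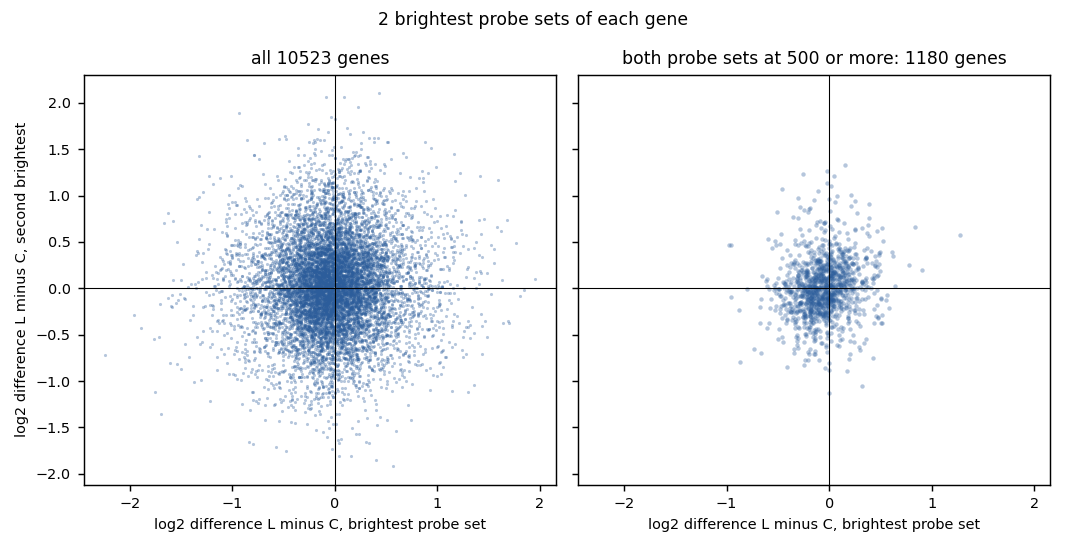
Log2 difference of L minus C in the brightest (horizontal) and second brightest (vertical) probe set of each gene, for all 10523 genes (left) and for the 1180 with both at a mean signal of 500 or more (right). The same sign was found in 51.7% on the left and 59.1% on the right.

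Outside the rule above, and chosen after their values were seen, 5 genes had an unadjusted p under 0.05 by limma in both of their 2 brightest probe sets. In 3 both had the same sign, and in the other 2 they had opposite signs. PTN encodes pleiotrophin, a heparin-binding growth factor of the developing brain. Its brightest probe set had 2001, 4295, 4009.8 and 6614 in L, against 2427, 1732, 2995 and 4020.1 in C, with a log2 difference of 0.53 (SE 0.22), and the second had 0.51 (SE 0.20). In both, L replicates 2 and 4 were above every C array, and L replicate 1 was below C replicate 1. Both probe sets are of the _x_at type, whose probes may bind several transcripts, and they may share probes. WDR76, a nuclear WD-repeat protein, had 321, 139, 103 and 119 in L, against 17.2, 93.7, 76.8 and 17.8 in C and a log2 difference of 1.59 (SE 0.62), with 1.17 (SE 0.32) in the second probe set. An uncharacterized locus, LOC389831, was lower in L in both, at -1.69 and -1.35. EPSTI1, a gene induced by interferon, was at -1.32 in the brightest and 1.43 in the second probe set. FZD2, a Wnt receptor, was at -1.34 and 0.97.

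Pathway and cell type lists were described with the brightest probe set of each gene. Over 38 lists, 733 of 810 listed genes were measured, 10 of them (1.36%) had an unadjusted p under 0.05 by limma (6 higher and 4 lower in L), and 0 had an adjusted p under 0.05. For all probe sets that share was 2.42%. The L arrays were all above the C arrays for 7 listed genes and all below for 3, against 0.93% and 1.17% of all probe sets. List medians ran from -0.37 to 0.41, with 18 above and 20 below 0. The lists overlap, so that a gene can count in several. The sign of the median turned in 13 of the 38 lists without L replicate 1 and in 13 in the 6 arrays that correlate best, and 28 medians were higher without L replicate 1. Of the 117 probe sets described with a log2 difference of at least 0.3 in size, 48 had the other sign or a difference over 1.5 times smaller in the 6 arrays, as had 19 without L replicate 1 and 24 without C replicate 2.

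Genes that make and move fatty acids had no member at an unadjusted p under 0.05. Among desaturases and elongases, 9 of 14 were higher in L, with a median log2 difference of 0.13. SCD, the desaturase that makes monounsaturated fatty acids, averaged 1160 ± 239 in L and 913 ± 178 in C, with a log2 difference of 0.33 (SE 0.29). HACD2, a dehydratase of the elongation cycle, was at -0.36 (SE 0.29). Of 16 uptake and activation genes 8 were higher in L (median -0.01). SLC27A1, a fatty acid transport protein, had 523, 332, 371 and 463 in L, against 202, 359.9, 273 and 300.4 in C. Its groups separated after normalization only, since C replicate 2 was above L replicate 2 as deposited, and the log2 difference was 0.56 (SE 0.36). MFSD2A, the transporter that carries DHA as lysophosphatidylcholine across the blood-brain barrier, had 134, 679.8, 444 and 313 in L, against 248, 39.6, 155 and 398 in C. Its arrays overlapped widely, with a log2 difference of 0.92 (SE 0.71, or 0.27 without C replicate 2).

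The list of lipid-sensing transcription factors, which also holds a thyroid hormone receptor, had 11 of 17 genes lower in L. Its median was -0.18, or 0.0015 without L replicate 1 and 0.07 in the 6 arrays. THRA, a thyroid hormone receptor, averaged 1496 ± 353 in L and 1862 ± 304 in C and RARB, a retinoic acid receptor, averaged 466 ± 103 in L and 723 ± 299 in C. Their log2 differences were -0.36 (SE 0.21, or -0.13 in the 6 arrays) and -0.57 (SE 0.37, or -0.31 in the 6 arrays). In cholesterol synthesis and uptake 13 of 21 were higher in L (median 0.09, or -0.01 in the 6 arrays). INSIG2, which holds the sterol sensor in the endoplasmic reticulum, was at -0.73 (SE 0.39), and GGPS1, which makes geranylgeranyl diphosphate, was at 0.73 (SE 0.40).

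Apolipoproteins and lipid exporters had 11 of 16 genes higher in L (median 0.10, or -0.09 without C replicate 2). LRP8, the reelin and apolipoprotein E receptor of neurons, had 580.4, 1126, 1013 and 963 in L, against 1477, 1020.4, 1747 and 1037 in C. L replicate 2 lay within the C range, and the log2 difference was -0.58 (SE 0.24, or -0.28 in the 6 arrays), the 1 unadjusted p under 0.05 of this list (limma, 0.0304). APOA1 was at -0.75 (SE 0.45).

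Fatty acid breakdown showed no common direction. In mitochondrial oxidation 11 of 23 genes were higher in L (median -0.01, or 0.32 without L replicate 1 and -0.22 without C replicate 2), with ACADS, the short chain acyl-CoA dehydrogenase, at -0.83 (SE 0.48) and ETFB, which passes its electrons on, at 1.04 (SE 0.69). In peroxisomal oxidation 10 of 14 were higher in L (median 0.10, or -0.12 in the 6 arrays), with AMACR, a racemase of branched chain substrates, at -1.0 (SE 0.64) and ACAA1, the thiolase, at -0.31 (SE 0.37, or -0.0043 without C replicate 2).

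Among phospholipases A2, 7 of 16 were higher in L (median -0.14, or 0.23 without L replicate 1 and 0.10 in the 6 arrays). PLA2G2A, a secreted phospholipase, averaged 390.1 ± 143 in L and 227 ± 22.4 in C, with a log2 difference of 0.74 (SE 0.40, or 0.28 in the 6 arrays). PNPLA2, the triglyceride lipase ATGL, was at -0.40 (SE 0.31, or -0.17 without L replicate 1, -0.16 without C replicate 1 and 0.23 in the 6 arrays). Glycerophospholipid synthesis had 12 of 30 higher in L (median -0.09, or 0.08 without L replicate 1). AGPAT5, an acyltransferase of phosphatidic acid synthesis, was at -0.93 (SE 0.57, or -0.19 without L replicate 1), and PCYT2, the rate-limiting enzyme of phosphatidylethanolamine synthesis, at -0.83 (SE 0.59, or -0.13 without L replicate 1). In both, L replicate 1 was far below every other L array.

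Eicosanoid enzymes and receptors had 11 of 28 genes higher in L (median -0.12, or 0.10 without C replicate 1). ALOX15B, a lipoxygenase that oxygenates ARA, had 403, 303, 520 and 280 in L, against 226, 102, 205 and 121 in C. All L arrays lay above all C arrays, with a log2 difference of 1.15 (SE 0.48) (limma p = 0.0306, exact permutation p = 0.0286), while L3/C was at -0.41. PTGES2, a prostaglandin E synthase, was at -0.61 (SE 0.36, or -0.10 in the 6 arrays). In the endocannabinoid system 6 of 10 were higher in L (median 0.09, or -0.05 without L replicate 3, -0.07 without L replicate 4, -0.10 without C replicate 2 and -0.02 in the 6 arrays), with the lipase ABHD6 at -0.38 (SE 0.27) and the receptor CNR1 at 0.21 (SE 0.27). For sphingolipids 11 of 21 were higher (median 0.00099, or 0.30 without L replicate 1), with the desaturase DEGS2 at -0.98 (SE 0.54) and sphingomyelin synthase SGMS1 at 0.82 (SE 0.51, or 0.06 in the 6 arrays).

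Energy, stress and translation genes had list medians of -0.12 to 0.03. Of 49 oxidative phosphorylation genes 18 were higher in L and the median was -0.08, or 0.11 without L replicate 1. NDUFA8, a subunit of complex I, had 32.1, 672, 411 and 401 in L, against 707, 465, 727 and 731 in C. L replicate 1 alone was far below the other arrays of both groups, with a log2 difference of -1.28 (SE 0.63, or -0.38 without L replicate 1) for the group. NDUFS3, another complex I subunit, was at 0.45 (SE 0.28). Uncoupling proteins and adenine nucleotide carriers had 5 of 11 higher (median -0.03), with UCP2 at 0.70 (SE 0.59, or 0.19 without C replicate 2) and the carrier SLC25A4 at -0.42 (SE 0.35, or 0.03 without L replicate 1).

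Antioxidant defence had 16 of 31 genes higher in L (median 0.03), with GPX7, a peroxidase of the endoplasmic reticulum, at 1.24 (SE 0.62) and glutathione reductase GSR at -0.68 (SE 0.50, or -0.14 without L replicate 1). The heat shock and unfolded protein response had 13 of 26 higher (median 0.01), with the co-chaperone DNAJB9 at 0.52 (SE 0.27) and the disulfide isomerase PDIA4 at -0.35 (SE 0.32, or -0.12 without C replicate 2). Of 45 ribosomal protein genes 21 were higher (median -0.01). RPS25 had 1535, 4228, 2362 and 2639 in L, against 1997, 1444, 2891 and 2257 in C. Its deposited signals overlapped, and only the normalized values separated (log2 difference 0.27 (SE 0.19)), while RPS15 was at 0.39 (SE 0.37, or 0.11 without L replicate 2 and 0.19 without C replicate 2). Immediate early genes, which neurons switch on with activity, had 9 of 22 higher in L (median -0.12, or -0.0017 without L replicate 1). EGR1 had 5573, 6128, 5693 and 5109 in L, against 7439, 6670.4, 8357 and 6902 in C. Every L array was below every C array as deposited, although the normalized values overlapped, with a log2 difference of -0.35 (SE 0.25). EGR3 was at -0.41 (SE 0.26, or -0.16 without L replicate 1 and 0.12 in the 6 arrays).

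Synaptic genes had list medians of -0.11 to 0.11. Glutamate receptors had 7 of 21 higher in L (median -0.11, or -0.02 in the 6 arrays), with GRIA2, an AMPA receptor subunit, at -0.36 (SE 0.35, or -0.13 without C replicate 1, -0.15 without C replicate 2 and 0.01 in the 6 arrays) and GRIN2D, an NMDA receptor subunit, at -0.38 (SE 0.36, or -0.03 without L replicate 1). GABA-A receptor subunits had 5 of 10 higher (median 0.04, or -0.02 without C replicate 4), with GABRA3 at 0.78 (SE 0.45) and GABRA5 at 0.58 (SE 0.36, or 0.10 in the 6 arrays). In vesicle release 10 of 29 were higher (median -0.04, or 0.03 without L replicate 1). SYN3, a synapsin of the vesicle surface, had 131, 31.2, 117 and 53.2 in L, against 162, 309, 136 and 116 in C. The groups separated after normalization, while L replicates 1 and 3 were above C replicate 4 as deposited (log2 difference -1.05 (SE 0.50)). SYN1 was at -0.29 (SE 0.18).

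Neurotransmitter transporters had 11 of 15 higher in L (median 0.11), although SLC17A6 was lower, and SLC17A8, the third vesicular glutamate transporter, was at 0.49 (SE 0.58, or 0.21 without C replicate 1). Neuropeptides and their receptors had 10 of 28 higher (median -0.07), with PTH2R as above and the opioid receptor OPRD1 at -0.69 (SE 0.38). Axon growth genes had 14 of 30 higher (median -0.01). NEFL, the light neurofilament chain, averaged 9709 ± 3160.3 in L and 7368 ± 3468 in C, with a log2 difference of 0.45 (SE 0.22), and the adhesion molecule CNTN2 was at 1.03 (SE 0.52).

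Notch and EGFR signalling had 15 of 28 genes higher in L (median 0.0021), with ERBB2 at 0.74 (SE 0.65, or 0.37 without C replicate 2 and 0.08 in the 6 arrays) and the Notch coactivator MAML1 at 0.58 (SE 0.54, or 0.07 without C replicate 2 and -0.16 in the 6 arrays). RNA-binding proteins of neural development had 17 of 28 higher (median 0.08, or -0.02 without C replicate 4). RBFOX1, a neuronal splicing factor, was lower in L, with 1143, 2236, 1788 and 1951 in L, against 3003, 2318, 3050 and 2323 in C. L replicate 2, the highest of its group, was just below C replicate 2, the lowest of the control arrays. The log2 difference was -0.61 (SE 0.20, or -0.31 in the 6 arrays) (limma p = 0.00866, exact permutation p = 0.0286), with -0.07 in L3/C. ELAVL3, which binds AU-rich RNA in neurons, was at -0.33 (SE 0.21).

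The visual perception genes are a list the study chose on these samples, and so are not independent evidence of a direction. Of 9, 7 were higher in L (median 0.41). TIMP3, an inhibitor of matrix metalloproteinases, had 740.4, 723, 849 and 984 in L, against 138, 305, 537 and 656 in C. All L arrays were above all C arrays, with a log2 difference of 1.23 (SE 0.47, or 0.42 in the 6 arrays) (limma p = 0.019, exact permutation p = 0.0286) and 0.50 in L3/C. Its other 3 probe sets were at 0.71, 0.27 and -0.32. TULP2, a tubby-like protein, had 54.4, 81.2, 126 and 97.7 in L, against 24.3, 27.7, 28 and 45.9 in C at a low signal, with a log2 difference of 1.21 (SE 0.47).

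**Figure D5:**
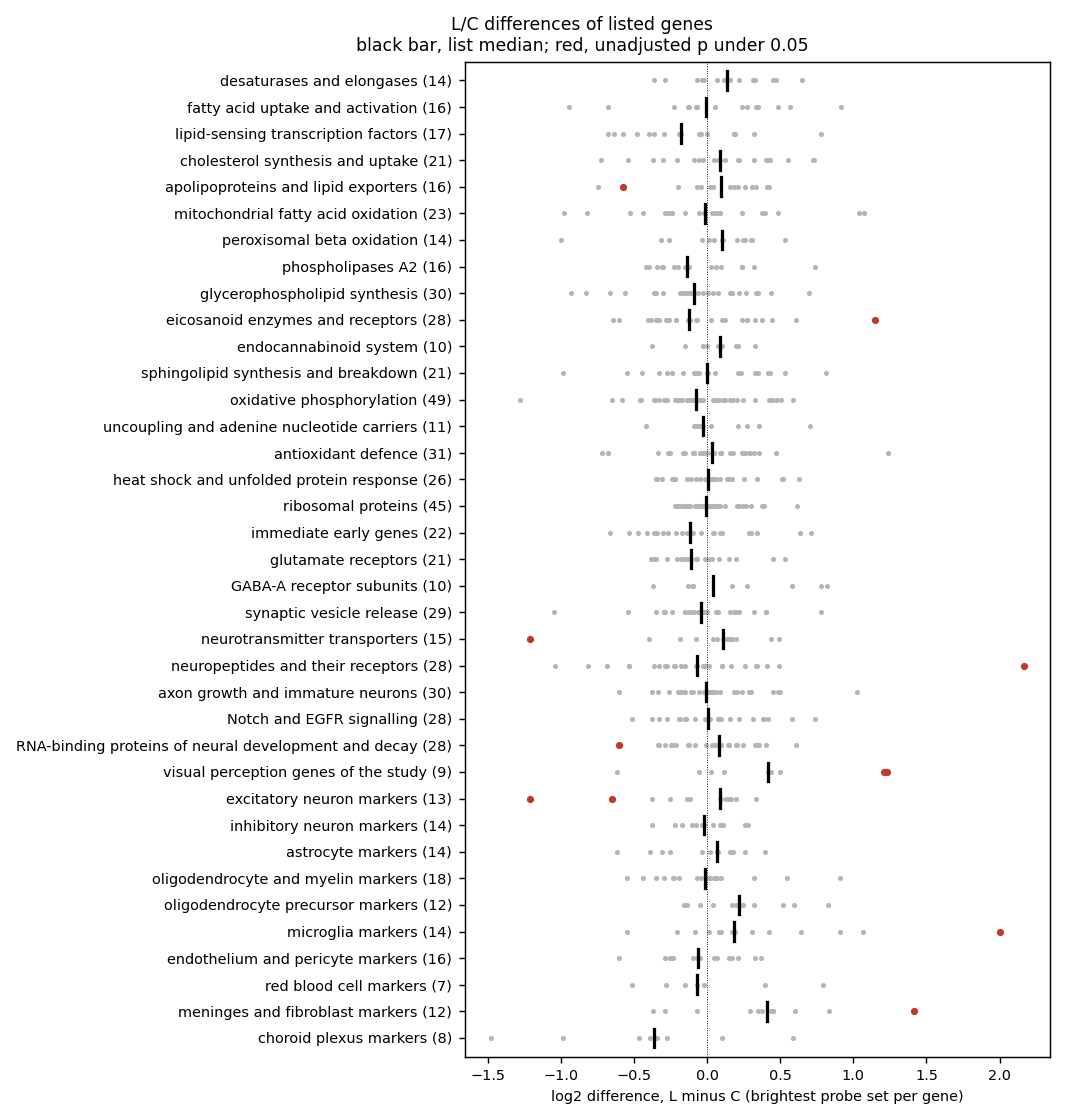
Log2 difference of L minus C for the brightest probe set of each listed gene (points), with the median of each list as a black bar and genes at an unadjusted p under 0.05 in red. The number in parentheses is the count of measured genes, and medians run from -0.37 for choroid plexus markers to 0.41 for visual perception and for meninges and fibroblast markers.

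Cell type markers were compared with the mean log2 value of each list per array. In excitatory neuron markers 7 of 13 were higher in L (median 0.09, or -0.14 without C replicate 1, -0.07 without C replicate 2 and -0.05 in the 6 arrays), and the list means ran from 10.0 to 10.5 in L and from 10.1 to 10.7 in C. SLC17A6 and RORB, a nuclear receptor of cortical layer neurons, were the members at an unadjusted p under 0.05. RORB had 1226, 1869, 789 and 1159 in L, against 2297, 1245, 2551 and 2009 in C, and L replicate 2 lay within the C range (log2 difference -0.65 (SE 0.29)). The defining markers SLC17A7 and CAMK2A were at 0.20 (SE 0.63) and -0.26 (SE 0.18) in their brightest probe sets. The dimmer SLC17A7 probe set was at -0.57 (SE 0.24, or -0.30 in the 6 arrays), with no overlap of L and C after normalization. Inhibitory neuron markers had 6 of 14 higher (median -0.02), list means of 9.66 to 10.0 in L and 9.65 to 10.1 in C, with SST at -0.22 (SE 0.19) and RELN at 0.28 (SE 0.26).

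Astrocyte markers had 9 of 14 genes higher in L (median 0.06, or 0.27 without L replicate 1 and -0.00049 without C replicate 2), with list means of 9.85 in L replicate 1, 10.7 to 10.8 in the other L arrays and 10.4 to 10.7 in C. GFAP was at -0.39 (SE 0.31) and ALDH1L1 at -0.62 (SE 0.34). Oligodendrocyte and myelin markers had 9 of 18 higher (median -0.01), list means of 8.78 to 9.56 in L and 8.79 to 9.58 in C, with transferrin (TF) at 0.55 (SE 0.37, or 0.18 without C replicate 2) and the myelin protein ermin (ERMN) at 0.91 (SE 0.69, or 0.08 without C replicate 2). Precursor markers had 9 of 12 higher (median 0.22, or 0.43 without L replicate 1). Over all 24 probe sets of these genes the median was -0.03. The list means were 8.34 to 9.25 in L and 8.14 to 8.99 in C. SOX10, a factor of the oligodendrocyte lineage, had 936, 1306, 1139 and 1187 in L, against 857, 449, 1063 and 1048 in C. The groups separated only after normalization (log2 difference 0.52 (SE 0.35, or 0.26 without C replicate 2)), and the proteoglycan CSPG4 was at 0.82 (SE 0.67).

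Microglia markers had 11 of 14 genes higher in L (median 0.18, or 0.42 without L replicate 1 and 0.05 without C replicate 2). The list means were 7.97 in L replicate 1, 8.39 to 8.66 in the other L arrays and 7.50 to 8.34 in C, so that 3 of the 4 L arrays were above every C array. C1QB was the 1 member at an unadjusted p under 0.05, ITGAM was at 1.07 (SE 0.64, or 0.30 without C replicate 2 and -0.48 in the 6 arrays), and CX3CR1 and P2RY12, which define the type, were at 0.19 (SE 0.36) and 0.10 (SE 0.42). Endothelium and pericyte markers had 7 of 16 higher (median -0.06, or 0.12 without L replicate 1 and 0.12 in the 6 arrays), list means of 8.06 to 8.72 in L and 8.31 to 8.68 in C, with TEK at -0.60 (SE 0.36) and the glucose transporter SLC2A1 at 0.32 (SE 0.24).

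Further lists mark tissue that can be dissected with cortex. Meninges and fibroblast markers had 9 of 12 genes higher in L (median 0.41, or 0.64 without L replicate 1 and 0.19 without L replicate 4), and their list means were 8.91 to 9.86 in L and 8.64 to 9.58 in C. OGN, a small proteoglycan of connective tissue, had 317, 202, 178 and 394 in L, against 230.3, 59.3, 209 and 11.9 in C, with overlap and a log2 difference of 1.41 (SE 0.63). DCN, the related decorin, was at 0.83 (SE 0.41), COL1A1 at 0.45 (SE 0.64) and COL1A2 at 0.60 (SE 0.40). Choroid plexus markers had 2 of 8 higher (median -0.37, or -0.13 without L replicate 1 and -0.08 in the 6 arrays), with list means of 6.99 to 7.35 in L and 7.06 to 8.01 in C. TTR, the transthyretin of the choroid plexus, had 66.0, 20.7, 37.2 and 21.1 in L, against 139.5, 525, 47.1 and 45.8 in C, and C replicate 2 was far above the rest (log2 difference -1.48 (SE 0.92)). AQP1 was at -0.99 (SE 0.58, or -0.14 in the 6 arrays). Red blood cell markers had 2 of 7 higher (median -0.07, or 0.08 without L replicate 3), list means of 7.38 to 8.13 in L and 7.55 to 8.04 in C, with AHSP at 0.79 (SE 0.51) and ALAS2 at -0.52 (SE 0.44). Their part in the L/C differences of single genes was not tested.

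The genes that the study examined by RT-PCR were read in the probe sets it named. The study selected them among genes upregulated in its L3/C comparison, so their L/C values do not check that selection. Of 10 probe sets of 9 genes, 8 were higher and 2 lower in L, with 1 at an unadjusted p under 0.05 by limma and 0 without overlap. Over all probe sets 2.42% had such a p, and 0.93% were higher and 1.17% lower without overlap. TIMM8A, a chaperone of mitochondrial protein import, had 199.8, 48.5, 91.4 and 63.2 in L, against 78.3, 34.1, 5.10 and 9.10 in C. L replicates 2 and 4 lay below C replicate 1, and the log2 difference was 1.46 (SE 0.56) (limma p = 0.0187, exact permutation p = 0.0571), with 2.17 in L3/C. Its brighter probe set was at -0.20 (SE 0.55). EGFR, the epidermal growth factor receptor, had 62.5, 49.0, 226 and 284 in L, against 322, 355, 175 and 231 in C in the study's probe set, which was lower in 2 of the 4 L arrays than in any C array, with a log2 difference of -1.02 (SE 0.50).

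No other RT-PCR probe set had an unadjusted p under 0.05. LUM, the proteoglycan lumican, was at 0.44 (SE 0.46) and ATP8B1, a phospholipid flippase, at 0.40 (SE 0.30). ADAM17, the protease that sheds growth factors and TNF, was at 0.41 (SE 0.40, or 0.17 without C replicate 1). NF1, a brake on RAS, was at -0.74 (SE 0.49) in the dimmer probe set and 0.14 (SE 0.49) in the other. UCP2 was at 0.23 (SE 0.51) in the study's probe set, the Wnt receptor FZD3 at 0.03 (SE 0.31) and the zinc finger gene ZNF611 at 0.0044 (SE 0.35). Of 23 further probe sets that the study singled out, for 21 genes, 13 were higher and 10 lower in L (log2 differences of -1.21 to 1.23). SLC17A6 and TIMP3 were the 2 at an unadjusted p under 0.05 by limma, against 2.42% of all probe sets. The study chose these genes on the same samples, so their count is not independent evidence of a direction.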

How the data were processed

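The authors deposited MAS5 signals from GCOS, a linear intensity per probe set that their software computed from perfect-match and mismatch probes; no version of MAS5 was given in the sources used here, and no genome build was used. Every array had a trimmed mean (2% at either end) of 250.0. The methods of the study describe RMA values, which the deposited table does not hold. Groups, sex and age came from the sample labels.

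For the tests, 16 was added to every signal before log2 values were quantile normalized over the 54613 probe sets that remained without the 62 controls. Group means were fitted with limma 3.58.1 (R 4.3.3), which left 9 residual degrees of freedom and used a variance trend. Benjamini-Hochberg adjustment ran over all probe sets, with a threshold of 0.05. Single values were also tested by an exact permutation test. Precision was limited by 4 arrays per group. Symbols came from the platform annotation, by which 41091 probe sets have 1 symbol, 1801 several and 11721 none.

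The named genes are, per direction, the 12 with the smallest limma p among probe sets with 1 symbol, a mean signal of at least 100 and no overlap of L and C arrays. For the lists, the 2 members with the smallest p and any without overlap are named in the brightest probe set, and the RT-PCR genes of the study are added. Further genes the study singled out were named only where the unadjusted p was under 0.05. The comparison, the lists and the genes were chosen with earlier results of these data known. Alternatives changed the normalization, the pseudocount, the filter, the test, the covariates and the arrays used. The scripts were tested on simulated data. Figures were drawn with matplotlib 3.10.9.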

Additional observations from a re-analysis of the deposited data

Results flagged for a closer look

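In 272 groups of 4 arrays, formed by the probe sets named in the text and the cell type lists in L and in C, 25 had 1 array far from the other 3, by a gap that chance gives in about 1 of 20 groups. The distances given are log2 gaps, in the normalized values, to the nearest other array of the group. L replicate 1 was the array apart in 11 of the 25. It was the lowest by 3.40 for NDUFA8, 2.74 for AGPAT5, 2.57 for PCYT2, 1.69 for SLC25A4, 1.31 for GRIN2D and 0.85 for PNPLA2, and by 0.88 for the mean of the astrocyte markers. The same array was the highest by 1.39 for AHSP, 1.03 for GRIA2, 0.63 for MAML1 and 0.17 for FZD3. As deposited, L replicate 2 was the highest L array for GRIA2, at 4960 against 4795 in L replicate 1. Elsewhere in L, replicate 2 was higher by 0.90 for HACD2 and by 0.39 for RPS25, and replicate 3 was lower by 0.72 for RELN.

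In C, replicate 2 was the lowest by 1.90 for MAML1, 1.26 for MICAL3, 1.00 for SOX10, 0.64 for SLN, 0.60 for SLC2A1, 0.55 for NDUFA8 and 0.17 for SST, and the highest by 0.41 for ALAS2. C replicate 1 was lower by 2.38 for LOC389831, 1.00 for SLC17A8 and 0.67 for SLC27A1. L replicate 1 also had the lowest correlation with the other arrays and a 3'/5' ratio of ACTB of 11. The part of array quality in these values was not tested.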

How the results depend on the processing

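No setting gave any probe set an adjusted p under 0.05. At an unadjusted p under 0.05 there were 1324 probe sets, and the count was 472 among the brighter probe sets alone, where fewer were tested, 781 by the methods' multiclass test with its pairwise test, 2759 with array weights and 2024 in the 6 arrays that correlate best, a setting chosen after seeing the data. The fit on the 8 L and C arrays alone gave 1597, and leaving out 1 array in turn gave 1026 to 1891. The share of these that were higher in L, 47.5% with a 95% interval of 44.8 to 50.2, was 43.9% with no further normalization, 42.8% among the brighter, 44.7% by the methods' test, 52.5% in females only, 50.9% with the spike-in covariate, 50.9% in the 6 arrays and 45.0% to 53.9% with 1 array left out, the highest without C replicate 4. Neither direction was therefore settled. Probe sets without overlap, 1145 in all, were 509 among the brighter ones, 10078 in females only and 2073 to 3127 with 1 array left out, where fewer arrays are compared.

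With the replicate number as a block, 1698 probe sets had an unadjusted p under 0.05, 51.4% of them higher in L, and 0 an adjusted one. Each array is another animal and the labels give the numbers no meaning. L and C arrays of the same number had correlations of 0.18, -0.085, 0.062 and 0.26 between their deviations from the group means, and only replicate 4 correlated best with its own number.

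Single genes turned direction, among them ITGAM and ETFB, whose differences were 1.07 and 1.04 over all 8 arrays. In the 6 arrays MAML1 was at -0.16, GRIA2 at 0.0063, ITGAM at -0.48, EGR3 at 0.12, FZD3 at -0.30 and PNPLA2 at 0.23. UCP2 was at -0.039 there in the probe set that the study named, while its brighter probe set was at 0.58. In females only ETFB was at -0.31, and NF1 was at -0.18 in the brighter probe set that the study named. ZNF611 was at -0.0077 with no further normalization, -0.082 with sex and -0.0076 with age, and FZD3 was at -0.021 with no further normalization, -0.028 with age, -0.057 with the ACTB ratio and -0.11 with array weights. With 1 array left out, SLC25A4 ran from -0.58 to 0.029, ZNF611 from -0.21 to 0.21 and FZD3 from -0.10 to 0.25. In the same probe sets of the study, UCP2 ran from -0.20 to 0.65 and NF1 from -0.041 to 0.43. The cause was not tested. The 24 genes named for no overlap kept their direction, at 0.90 to 2.81 and at -3.00 to -0.61, which the way they were chosen largely fixes. Of 38 list medians, 6 kept their sign in all 26 settings, those of desaturases and elongases, immediate early genes, visual perception, microglia, meninges and choroid plexus. Some kept it only close to 0. Desaturases and elongases were at 0.0016 in the 6 arrays, and immediate early genes at -0.0017 without L replicate 1. Microglia were at 0.05 without C replicate 2.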

Other observations

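Among the brightest genes, those at a mean signal of at least 1000, most probe sets without overlap were lower in L. Of 2602 such probe sets with 1 symbol, 37 had no overlap between the 4 L and 4 C arrays after quantile normalization, 10 higher and 27 lower in L. Over all probe sets the shares were 0.93% higher and 1.17% lower, and neither count exceeded its share. As deposited, the signals of 34 of the 37 overlapped, and the first RBFOX1 probe set was among the 3 that did not. This brightness limit and the genes below were chosen after their values were seen, and 0 of the 37 had an adjusted p under 0.05 by limma. RBFOX1, the neuronal splicing factor, appeared with 2 probe sets. The first averaged 1779 ± 463 in L and 2673 ± 408 in C, with a log2 difference of -0.61 (SE 0.20), and the second averaged 1539 ± 480 in L and 1999 ± 518 in C, with -0.42 (SE 0.25). The third RBFOX1 probe set was at -0.10 (SE 0.59).

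CACYBP, which binds calcyclin and takes part in ubiquitin ligases, was at -0.53 (SE 0.19), and its 3 other probe sets were also lower in L. ARPP21, a cyclic AMP regulated phosphoprotein of neurons, was at -0.43 (SE 0.18), the cyclin CCNG2 at -0.59 (SE 0.21), the transcription factor MEF2A at -0.56 (SE 0.22), and CDH18, a neuronal cadherin, at -0.50 (SE 0.22). The chromatin protein HMGB1 was at -0.49 (SE 0.19). SLC17A7 was at -0.57 (SE 0.24), while its brighter probe set had the other direction. Of the genes higher in L, SPARC, a matricellular protein, averaged 1461 ± 331 in L and 861 ± 468 in C, with a log2 difference of 1.02 (SE 0.39). Cytochrome c (CYCS) was at 0.46 (SE 0.20), and its 2 other probe sets were also higher in L. In the 6 arrays that correlate best, the log2 difference was 0.38 for SPARC, -0.31 for MEF2A and -0.31 for the first RBFOX1 probe set. As deposited, L replicate 1 was the lowest L array for all of these genes, and its part in the differences was not tested.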
